A study of Macaca fascicularis with 56 samples.

Results

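The comparison described here set the peptide control arm against the vehicle arm in blood drawn at 2 h, with the 8 arrays (4 against 4) whose sample source names give those arms and that hour, out of 56 arrays in the series. The series followed cynomolgus macaques (Macaca fascicularis) through an endotoxin challenge and treatment with LR12, a peptide from TREM-like transcript 1 known to compete for what binds the receptor TREM-1, or with a scrambled version of it. Whole blood of each animal was sampled at 0, 2, 4 and 8 h. The vehicle arm held Y31301, Y31302, Y31303 and Y31304, and the peptide control arm, which by the series title is the scrambled peptide, held Y31305, Y31306, Y31307 and Y31308. Values are given in that order of animals throughout. The labels give no dose, age or sex, and do not say whether the vehicle animals received endotoxin or how hour 0 relates to the challenge. The question the comparison answers is whether blood of animals given the scrambled peptide differed at 2 h from blood of animals given vehicle.

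Endotoxin is sensed on monocytes and neutrophils by TLR4 with its partners CD14 and LY96. The signal reaches NF-kB, a family of transcription factors held inactive by inhibitors such as NFKBIA, and NF-kB induces cytokines, adhesion molecules and its own inhibitors within hours. TREM-1 amplifies that signal through the adaptor TYROBP. In blood the response also changes which leukocytes circulate, and in bulk blood fewer cells of a type and less RNA per cell cannot be told apart.

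Levels are log2 of the MAS5 signal, a summary of the probes of a probe set made by the submitters, and a difference is peptide control minus vehicle on that scale. The number of arrays limits the precision. Macaque RNA was read with human probes, so levels were not compared between genes. The expected blood cells were read in all 8 arrays: S100A8 of neutrophils and monocytes lay between 13.33 and 14.23, CD3D of T cells between 10.61 and 11.87, CD79A of B cells between 9.11 and 10.53, and HLA-DRA of antigen-presenting cells between 12.43 and 13.36. Array medians at 2 h ran from 17.01 to 18.75 on the linear scale.

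One animal of each arm stood apart from the rest of its arm. On the first principal component of the 8 arrays, which held 33.2% of the variance over all genes tested, the vehicle animals lay at -56.2, -57.8, 56.4 and -47.8, and the peptide control animals at -45.8, 53.3, 45.3 and 52.6. The animal labelled vehicle, Y31303, thus lay on the side of Y31306, Y31307 and Y31308, just beyond them, and the animal labelled peptide control, Y31305, on the side of Y31301, Y31302 and Y31304. On the second component (13.4%) they lay at -38.2 and -40, below all other animals. The arrays of these animals matched their own animal: over 200 probe sets chosen because they differed between animals and stayed level at 0, 4 and 8 h, the 2 h array of Y31303 correlated at 0.85 with its animal's other hours and at most at 0.17 with another animal, and that of Y31305 at 0.86 and at most at 0.07. All 14 arrays at 2 h had their best match in the same animal. This match bears on which animal an array came from, not on which arm an animal belonged to. Whether the arm labels of Y31303 and Y31305 were exchanged was not tested, and every difference between the arms given here uses the arms as labelled. From 0 h to 2 h, the share of genes that moved by more than 2-fold in an animal was 17.5%, 20.7%, 28.5% and 20.5% in the vehicle arm and 19.6%, 28.1%, 27.6% and 27.4% in the peptide control arm.

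**Figure D1:**
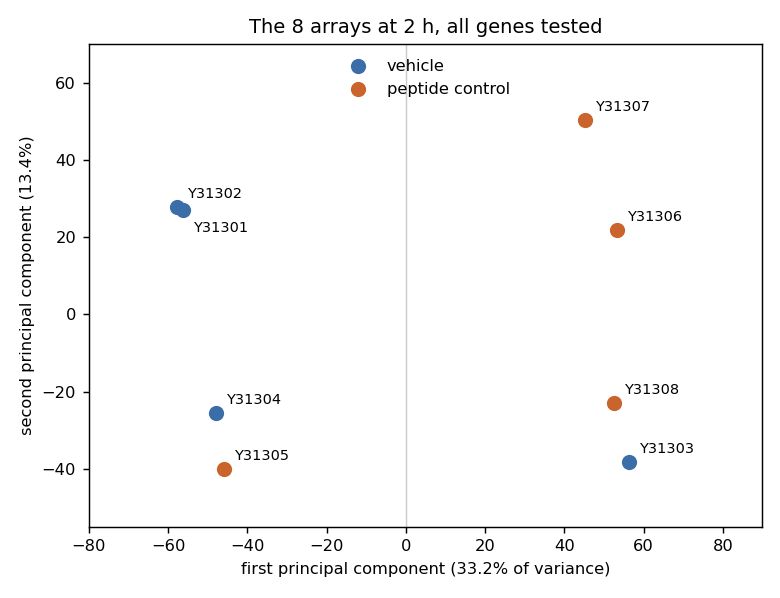
First and second principal components of the 8 arrays at 2 h over all genes tested (axes give the component and its percent of the variance; blue, vehicle; orange, peptide control; 1 point per animal). Vehicle Y31303 lies at 56.4 on the first component beside 3 peptide control animals, and peptide control Y31305 at -45.8 beside 3 vehicle animals.

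Between the arms as labelled, no gene passed the test at 2 h. With limma fitted to all 56 arrays, 0 of 16020 genes reached an adjusted p below 0.05 (0%), and the smallest adjusted p was 0.0706. At an unadjusted p under 0.05, 666 genes were higher in the peptide control arm (4.16%) and 673 lower (4.2%). With the spread taken from the 8 arrays alone, limma called 0 genes as well, 1026 had an unadjusted p under 0.05, and the smallest adjusted p was 0.732. Each SE given for a gene comes from the fit of all 56 arrays, not from the 8 arrays alone. From the 8 arrays it was wider for ICAM1 (1.26 against 0.7), IL18 (1.32 against 0.7) and CEBPA (0.92 against 0.45). For KYNU it was 0.23 against 0.25. The median difference over all genes was -0.033.

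That count turned on the 2 animals that stood apart. Without vehicle Y31303, limma called 638 genes, 343 higher and 295 lower in the peptide control arm. Without peptide control Y31305 it called 383 genes, 226 higher and 157 lower. Leaving out any of the other 6 animals gave 0 genes. These counts show how far single animals set the result. Y31303 and Y31305 stood out in these same 2 h values. The adjusted p values without either of them, here and below, are therefore not a test of the arms. Of the 100 genes chosen to be named, 55 were called without Y31303, 44 without Y31305 and 38 in both of these fits. Over all genes the share called was 3.98% without Y31303 and 2.39% without Y31305. Many of the 100 were chosen for a small p in this same comparison, so a higher share among them was built in.

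**Figure D2:**
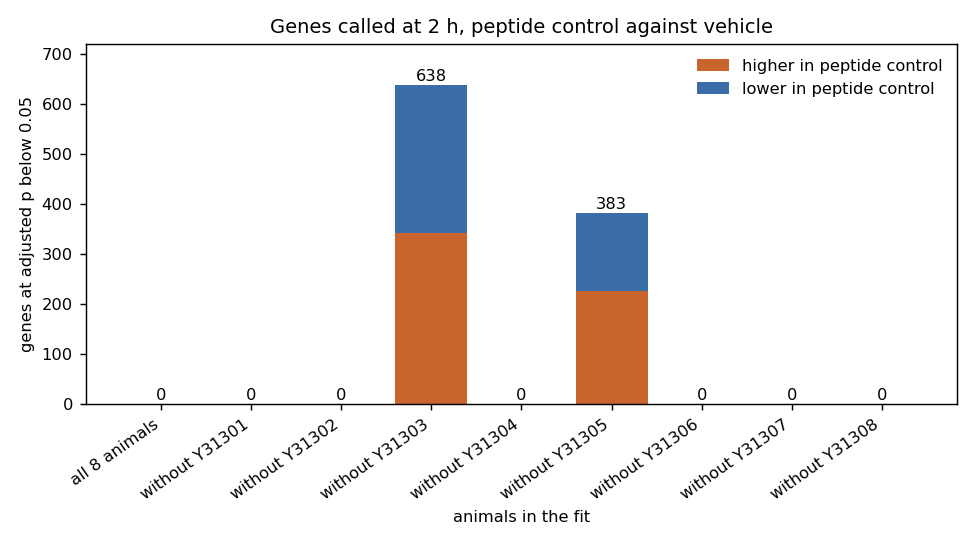
Number of genes with an adjusted p below 0.05 between peptide control and vehicle at 2 h (vertical axis) for all 8 animals and with each animal left out in turn (horizontal axis). Bars stack genes higher (orange) and lower (blue) in peptide control; they reach 638 without Y31303 and 383 without Y31305, and 0 elsewhere.

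NF-kB feedback and early response genes gave the largest median difference of the 31 gene lists. Of 15 genes tested, 15 were higher on average in the peptide control arm, with a median difference of 1.4 against -0.033 over all genes, and 0 were called. At an unadjusted p under 0.05, 11 of the 15 were higher and 0 lower, beside 4.16% and 4.2% of all genes. None of the 15 had values that did not overlap between the arms, beside 1.37% of all genes on the higher side. The median of the list in each animal, relative to all genes and to the mean of the 8 arrays, was -1.22, -1.4, 0.88 and -1.27 in the vehicle arm and -0.55, 1.32, 1.24 and 0.94 in the peptide control arm. In level, Y31303 lay close to the upper 3 peptide control animals, and Y31305 between them and the other vehicle animals. The median change of the list from 0 h, relative to all genes, was -0.07, -0.27, 1.99 and -0.08 in the vehicle arm. In the peptide control arm that change was 0.02, 2.22, 2.28 and 2.28, so Y31305 stayed near its start, as Y31301, Y31302 and Y31304 did.

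ICAM1, the endothelial and leukocyte adhesion molecule, stood at 5.72, 5.68, 10.47 and 6.77 in the vehicle arm and 7.26, 11.77, 11.83 and 10.85 in the peptide control arm. Its difference was 3.27 ± 0.70 (SE, limma adjusted p = 0.0706). The 3 highest values all belonged to the peptide control arm, and the arms overlapped through Y31303 and Y31305. At 0 h the same 8 animals read 5.82, 6.08, 5.62 and 6.7, then 7.47, 6.04, 6.84 and 5.47, so Y31305 moved little from its own start. Without Y31303 the difference was 4.37 (adjusted p = 1.02e-05), and without Y31305 it was 4.32 (adjusted p = 7.94e-05).

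NFKBIA, the inhibitor that returns NF-kB to the cytoplasm, read 11.01, 11.25, 12.67 and 10.46 with vehicle and 11.72, 13.07, 13.19 and 12.99 with peptide control. The difference was 1.40 ± 0.29 (SE, adjusted p = 0.0706). Here Y31305 lay above Y31301, Y31302 and Y31304, and Y31303 below Y31306, Y31307 and Y31308. TNFAIP3 (A20), a ubiquitin-editing brake on NF-kB, read 8.96, 9.3, 12.33 and 9.1 against 9.88, 13.05, 13.2 and 12.62. Its difference of 2.26 ± 0.52 had an adjusted p of 0.0876. RELB, an NF-kB subunit named here after its values were seen, differed by 2.49 ± 0.57 (adjusted p = 0.0876). It read 10.05 in Y31303, within the 9.56 to 10.44 of Y31306, Y31307 and Y31308, and 8.27 in Y31305. IER3, an early response gene that protects from cell death, differed by 2.56 ± 0.99 (adjusted p = 0.389).

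**Figure D3:**
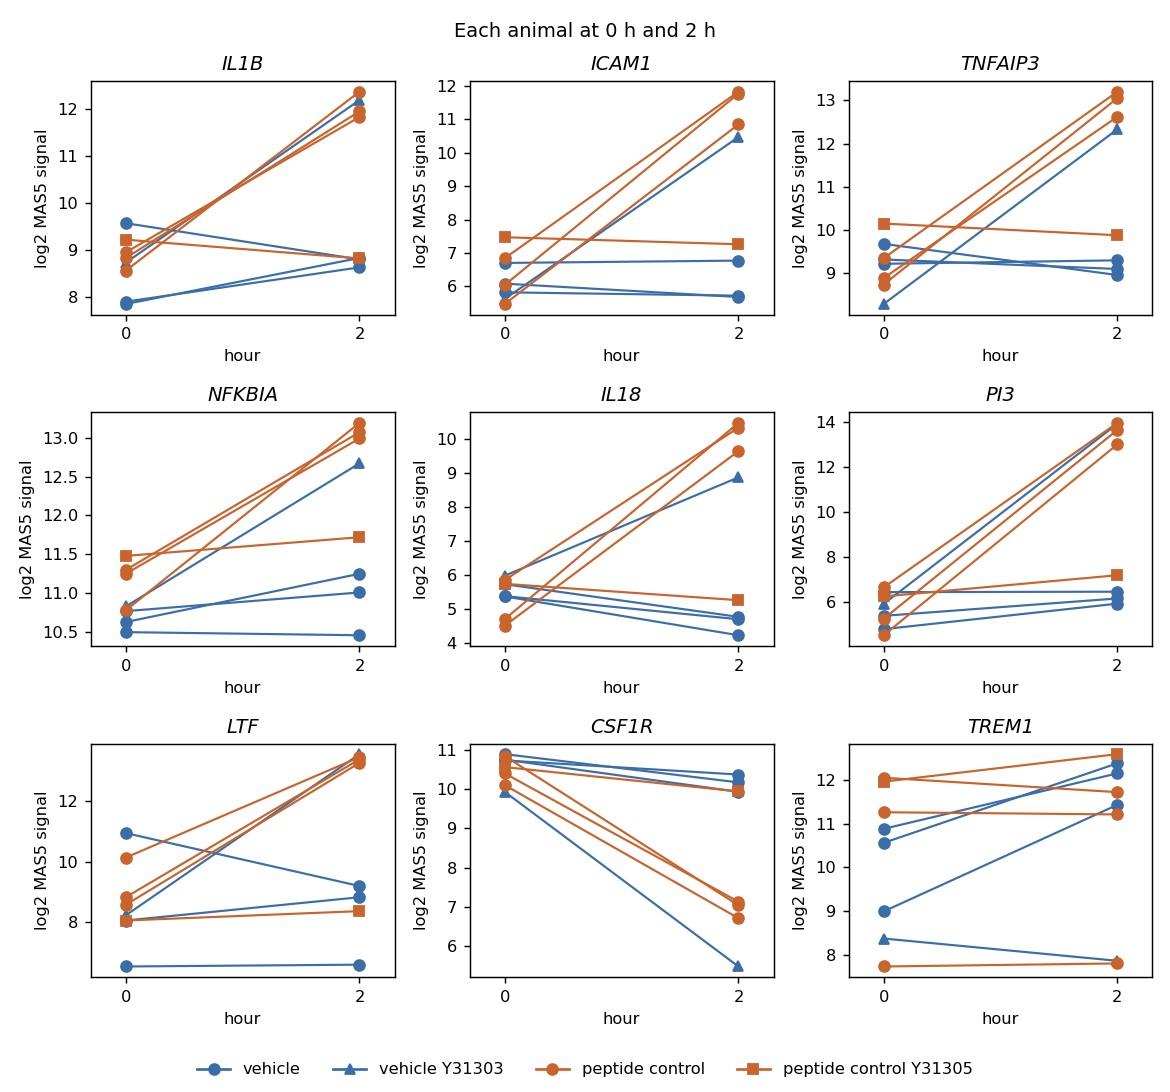
Log2 MAS5 signal (vertical axes) at 0 h and 2 h (horizontal axes) of 9 genes in each animal; lines join the 2 arrays of an animal, blue for vehicle (triangles, Y31303) and orange for peptide control (squares, Y31305). For IL1B the line of Y31303 reaches 12.19 with 3 peptide control animals, while Y31305 stays at 8.82 with 3 vehicle animals; TREM1 shows no such order.

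Inflammatory cytokine genes had a median difference of 0.79, with 12 of 15 higher, and 0 were called. IL18, a cytokine matured by the inflammasome, read 4.23, 4.7, 8.87 and 4.77 in the vehicle arm and 5.26, 9.64, 10.47 and 10.33 in the peptide control arm. Its difference was 3.28 ± 0.70 (SE, adjusted p = 0.0706), and all 3 upper peptide control values lay above Y31303. IL1B, the gene of interleukin 1 beta, read 8.83, 8.63, 12.19 and 8.8 against 8.82, 11.95, 12.37 and 11.83. The arms overlapped widely, and the difference of 1.63 ± 0.58 had an adjusted p of 0.327. For IL1B it was 2.49 (adjusted p = 0.000935) without Y31303 and 2.44 (adjusted p = 0.00467) without Y31305. The 6 LR12 animals at 2 h read IL1B between 12.08 and 12.48, a range that held Y31303 and 1 peptide control animal, Y31307. CSF3, the granulocyte growth factor G-CSF, differed from this order: Y31303 read 1.36, among the low vehicle values of 3.67, 2.03 and 0.64, and the peptide control animals 3.01, 5.26, 4.84 and 4.55. Its fitted difference was 2.49 ± 0.78 (adjusted p = 0.232), with 3 vehicle values below the 20th percentile. TNF (0.99 ± 0.53, adjusted p = 0.643) and IL6 (1.44 ± 0.85, adjusted p = 0.703) were higher on average and not called.

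Chemokine genes, which draw leukocytes to inflamed tissue, had a median difference of 0.90, with 14 of 18 higher and 0 called. CCL20, a chemokine for CCR6-bearing cells, read 1.24, 0.78, 6.0 and 0.65 with vehicle and 1.5, 8.12, 6.82 and 4.92 with peptide control. In 3 vehicle animals and in Y31305 it lay below the 20th percentile of the arrays, log2 2.18, so the size of its difference, fitted at 3.18 ± 1.07 (SE, adjusted p = 0.259), is not defined. CCL2, which recruits monocytes, read 4.98, 3.8, 7.93 and 4.51 against 4.21, 8.43, 9.41 and 7.63 (difference 2.11 ± 0.82, adjusted p = 0.387). CXCL10 differed by 1.99 ± 0.74 (adjusted p = 0.359), and here Y31305 read 8.25, above the 8.07 of Y31303. CXCL8, the neutrophil chemokine, read between 5.53 and 6.68 in all 8 animals (0.17 ± 0.45, adjusted p = 0.987).

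Among anti-inflammatory mediators 13 of 17 were higher on average, the median difference was 0.42, and 0 were called. SOCS1, an inhibitor of cytokine receptor signalling, read 6.23, 5.55, 8.37 and 6.02 with vehicle and 7.3, 8.84, 8.89 and 8.46 with peptide control. The difference was 1.83 ± 0.44 (SE, adjusted p = 0.0946), with Y31305 between both sets of values. IL1RN, the interleukin 1 receptor antagonist, read 10.31, 10.03, 13.54 and 10.96 against 10.78, 13.39, 13.22 and 13.55 (1.52 ± 0.55, adjusted p = 0.34). TSC22D3 (GILZ), a glucocorticoid-induced gene, was lower on average: 13.46, 13.47, 11.73 and 13.31 against 13.41, 11.34, 11.64 and 11.62. Its difference of -0.99 ± 0.28 had an adjusted p of 0.176, and Y31305 lay among the 3 upper vehicle values.

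Immediate early factors, transcription factors induced without new protein synthesis, had a median difference of 0.22 with 12 of 19 higher. NR4A3, an orphan nuclear receptor of that group, read 5.58, 4.96, 8.1 and 4.54 with vehicle and 4.73, 8.97, 10.81 and 8.66 with peptide control (2.50 ± 0.66, SE, adjusted p = 0.138). MAFF, a small MAF factor, read 6.31, 6.85, 8.83 and 6.93 against 8.61, 8.56, 9.44 and 8.43. In MAFF all 4 peptide control animals and Y31303 were high, and the difference was 1.53 ± 0.38 (adjusted p = 0.109). At 0 h Y31305 already had the highest MAFF level of the 8, at 7.83.

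In the endotoxin recognition list 11 of 17 genes were higher on average, the median difference was 0.15, and 0 were called. ACOD1, the enzyme that makes itaconate in activated macrophages, gave its largest difference, with 3.91, 3.67, 9.54 and 3.87 against 5.24, 9.92, 10.83 and 10.64 (3.91 ± 0.96, SE, adjusted p = 0.109). CD14, the endotoxin co-receptor, read 11.76, 11.65, 12.77 and 11.23 against 12.13, 12.98, 13.28 and 12.95 (0.99 ± 0.30, adjusted p = 0.202). IRAK2, a kinase downstream of the receptor, differed by 1.64 ± 0.44 (adjusted p = 0.145). LY96, the TLR4 partner that binds endotoxin, was the member whose arms did not overlap, at a mean of 10.01 with vehicle and a difference of -2.05 ± 0.66 (adjusted p = 0.241), and is named here after its values were seen. TLR4 itself read between 10.94 and 12.17 in the peptide control arm and between 11.09 and 11.67 with vehicle (0.40 ± 0.37, adjusted p = 0.879).

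TREM-1 and its adaptor pathway, the receptor system that LR12 was built to block, had a median difference of 0.21 with 13 of 19 higher and 0 called. TREM1 read 12.38, 11.43, 7.86 and 12.15 with vehicle and 12.59, 7.8, 11.21 and 11.72 with peptide control, a difference of -0.13 ± 1.03 (SE, adjusted p = 0.994). The low values belonged to Y31303 and Y31306, which were the lowest of the 8 at 0 h too, at 8.37 and 7.73. TREM2, a relative of TREM1 on myeloid cells, read 4.52, 3.81, 7.61 and 5.76 against 5.89, 7.85, 7.85 and 8.42 (2.08 ± 0.54, adjusted p = 0.124). VAV1, a signalling adaptor below such receptors, read 12.29 in Y31303 and 10.33 in Y31305, against 12.25 to 12.34 in the other peptide control animals (1.03 ± 0.36, adjusted p = 0.326).

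Neutrophil granule genes, whose products are stored in granules and are transcribed mainly in immature neutrophils, had a median difference of 0.98, with 18 of 19 higher and 0 called. LTF, lactotransferrin of the specific granules, read 6.59, 9.19, 13.55 and 8.82 with vehicle and 8.36, 13.26, 13.38 and 13.45 with peptide control (2.58 ± 1.25, SE, adjusted p = 0.576). The LTF difference was 3.91 (adjusted p = 0.0127) without Y31303 and 3.83 (adjusted p = 0.0864) without Y31305. PI3, the protease inhibitor elafin, read 6.17, 5.94, 13.91 and 6.47 against 7.2, 13.95, 13 and 13.64. PI3 fell into a high and a low set of 4 animals each, and the difference between the arms, 3.82 ± 1.60, had an adjusted p of 0.455. It was 5.75 (adjusted p = 0.00195) without Y31303 and 5.41 (adjusted p = 0.0367) without Y31305. Mature neutrophil markers had a median difference of 0.07, with 11 of 19 higher, 0 called, and FPR1, a receptor for bacterial peptides, at 0.53 ± 0.25 (adjusted p = 0.557). S100A12 read 8.12, 8.38, 11.44 and 10.17 against 9.41, 9.91, 11.06 and 10.86 (0.79 ± 0.71, adjusted p = 0.875).

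Platelet genes were higher in the same animals: 16 of 17 were higher on average in the peptide control arm (median difference 0.82), and 0 were called. The list stood at -0.4, -1.08, 0.81 and -0.89 in the vehicle animals and -0.5, 1.07, 0.52 and 0.15 in the peptide control animals, relative to all genes and the mean of the 8 arrays. MYL9, a myosin light chain abundant in platelets, differed by 1.17 ± 0.42 (SE, adjusted p = 0.333) and GNG11 by 1.01 ± 0.35 (adjusted p = 0.321). Erythroid genes stood at -0.49, -0.89, 1.09 and -0.16 against -0.59, 0.02, 0.21 and 0.31 (13 of 19 higher, median 0.16), and TFRC, the transferrin receptor, read 9.15 in Y31303 and 7.38 in Y31305 (1.76 ± 0.41, adjusted p = 0.0876). The part of platelet and red cell RNA in the other results was not tested.

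Some genes of monocytes and other myeloid cells were lower on average in the peptide control arm and others higher, and none was called. CEBPA, a transcription factor of myeloid cells, read 11.17, 11.35, 7.65 and 11.25 with vehicle and 10.72, 7.59, 8.48 and 8.1 with peptide control (-1.63 ± 0.45, SE, adjusted p = 0.157). CSF1R, which binds the growth factor M-CSF, read 10.17, 9.93, 5.48 and 10.37 against 9.94, 7.04, 6.71 and 7.13 (-1.28 ± 0.68, adjusted p = 0.635). Y31303 had the lowest CSF1R of all 8, and without it the difference was -2.45 (adjusted p = 0.001), against -2.02 (adjusted p = 0.106) without Y31305. For CEBPA the values were -2.53 (adjusted p = 1.01e-05) and -2.29 (adjusted p = 0.00115). SELPLG, the selectin ligand PSGL-1, read 10.21, 9.84, 7.94 and 10.24 against 9.87, 7.99, 7.94 and 8.12 (-1.08 ± 0.32, adjusted p = 0.191), and CXCR4, a receptor that retains cells in the bone marrow, 11.99, 12.31, 11.85 and 12.34 against 12.06, 10.79, 11.04 and 11.46 (-0.78 ± 0.24, adjusted p = 0.202). CXCR4 was thus close to the vehicle level in Y31303, unlike CSF1R and CEBPA. Over the monocyte marker list 6 of 15 genes were higher and 9 lower on average (median -0.14). The largest differences of that list were on the higher side, FCGR1A at 2.93 ± 1.21 (adjusted p = 0.439) and MARCO at 2.86 ± 1.61 (adjusted p = 0.679). MARCO had a low vehicle mean of 2.82, so the size of its difference is uncertain. CD14, also higher at 0.99 ± 0.3 (adjusted p = 0.202), had the smallest p of the list.

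Glucocorticoid-induced genes were lower on average in 13 of 17 (median -0.19), with 0 called. PDK4, a kinase that holds back glucose oxidation, read 9.94, 9.69, 6.91 and 9.59 with vehicle and 8.68, 5.69, 5.66 and 5.99 with peptide control (-2.53 ± 0.60, SE, adjusted p = 0.0946). ADM, the vasodilator adrenomedullin, was higher on average, at 5.65, 4.88, 10.04 and 5.29 against 6.18, 9.65, 10.71 and 10.25 (2.73 ± 0.81, adjusted p = 0.2). In glycolysis and hypoxia genes as a list, 18 of 27 were higher and the median difference was 0.14.

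**Figure D4:**
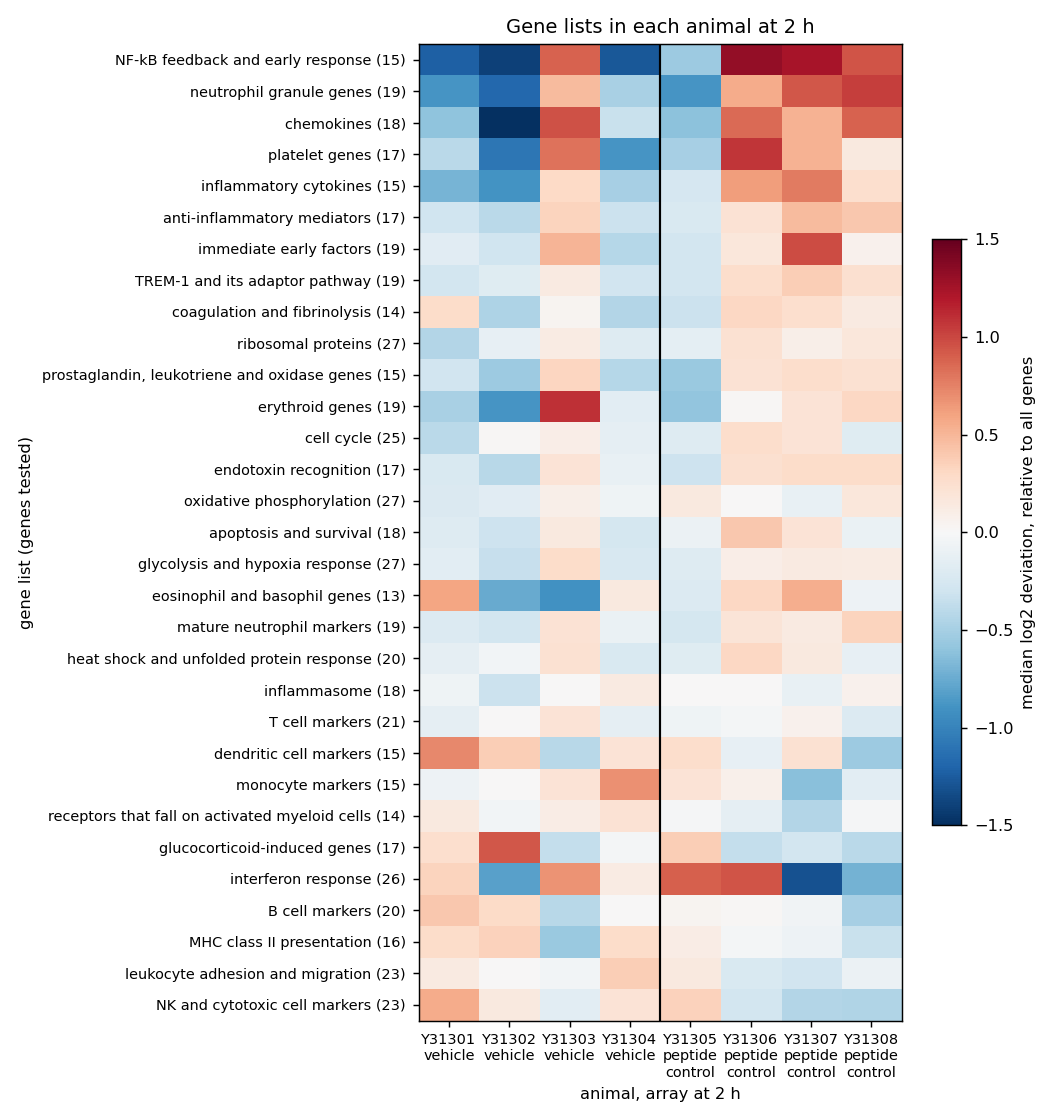
Median log2 deviation of each gene list (rows, with the number of genes tested) in each animal at 2 h (columns, vehicle left of the line, peptide control right of it) from the mean of the 8 arrays, relative to all genes; red is higher and blue lower. For NF-kB feedback genes Y31303 stands at 0.88 with the 3 upper peptide control animals, and Y31305 at -0.55.

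None of the lymphocyte lists had a called member. T cell markers had a median difference of -0.05 (9 of 21 higher) and ranged from -0.2 to 0.2 over the 8 animals. B cell markers had -0.22 (14 of 20 lower), with CD79A at -0.39 ± 0.54 (SE, adjusted p = 0.957). NK and cytotoxic cell markers had -0.33, with 20 of 23 lower, beside a median of -0.42 between the same animals at 0 h. In the animals this list stood at 0.56, 0.15, -0.16 and 0.2 with vehicle and 0.35, -0.28, -0.44 and -0.45 with peptide control, so that Y31303 was the lowest vehicle animal and Y31305 the highest peptide control animal. TBX21, a transcription factor of cytotoxic and helper cells, read 4.37, 5.26, 3.81 and 4.74 against 5.17, 3.42, 0.63 and 2.37 (-1.65 ± 0.65, adjusted p = 0.402). TBX21 differed by -2.04 ± 0.65 already at 0 h, and by 0.40 ± 0.92 in the change from 0 h. Its value in Y31307 lay below the 20th percentile. MHC class II presentation had -0.24 (12 of 16 lower), with HLA-DRA at -0.18 ± 0.22 (adjusted p = 0.95). Dendritic cell markers (-0.09), eosinophil and basophil genes (0.12), cell cycle genes (0.16), ribosomal proteins (0.19, 24 of 27 higher), oxidative phosphorylation genes (0.15), heat shock genes (-0.03), apoptosis and survival genes (0.14), coagulation genes (0.19), prostaglandin and oxidase genes (0.17), leukocyte adhesion genes (-0.25), inflammasome genes (-0.03), receptors that fall on activated myeloid cells (-0.16) and interferon response genes (-0.22) each had 0 members called.

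In some genes the 4 peptide control values, Y31305 included, all lay on one side of the 4 vehicle values. Of 16020 genes, 219 lay wholly higher in the peptide control arm (1.37%) and 274 wholly lower (1.71%), and none of them was called. The 24 described next are the 12 on each side with the smallest p, among those whose higher arm had a mean above the 20th percentile. They were chosen for not overlapping, so that the separation itself is not a finding. Their differences ran from 0.6 to 2.53 on the higher side and from -2.47 to -0.57 on the lower side.

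On the higher side, SLC2A6, a glucose transporter of lysosomal membranes, read 5.6, 5.49, 6.35 and 5.69 with vehicle and 7.08, 8.02, 6.51 and 7.5 with peptide control (1.49 ± 0.37, SE, adjusted p = 0.109). At 0 h its order was not there (-0.51, adjusted p = 1). KYNU, kynureninase of tryptophan breakdown, read 10.43, 10.32, 9.61 and 10.69 against 11.19, 11.51, 11.13 and 11.34 (1.03 ± 0.25, adjusted p = 0.0946). KYNU was separated by arm already at 0 h, with 10.06, 10.37, 10.35 and 10.71 against 11.55, 11.2, 10.85 and 11.48, and its difference in the change from 0 h was 0.13 ± 0.35. MT1H, a metallothionein that binds zinc and copper, read 8.6, 8.7, 9.51 and 9.17 against 10.31, 10.76, 9.97 and 11.39 (1.61 ± 0.48, adjusted p = 0.198), and since metallothionein genes are nearly identical, its probes may read several of them. CSRNP1, a nuclear protein, differed by 0.95 ± 0.24, and ATP5PD, a subunit of the ATP synthase, by 0.78 ± 0.19 (both adjusted p = 0.109). In ATP5PD the vehicle animals Y31301 and Y31302 went from 12.01 and 11.83 at 0 h to 10.79 and 10.8, while the peptide control animals read 11.61 to 12.02 at 2 h.

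The others on that side were CCDC12 (1.15), IRF2BP2 (0.6), a corepressor, DNTTIP2 (0.84), COX15 (1.1), which takes part in heme A synthesis, and GALNT5 (2.33), CIMIP5 (2.53) and PHOX2A (2.4). GALNT5, CIMIP5 and PHOX2A were read below the 20th percentile in at least 2 vehicle animals, so that the size of their differences is not defined. Adjusted p values of these 12 genes ran from 0.0876 to 0.2.

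On the lower side, MPEG1, perforin-2 of phagocytes, read 12.2, 11.92, 11.53 and 12.12 with vehicle and 11.01, 10.82, 10.95 and 10.89 with peptide control (-1.03 ± 0.29, SE, adjusted p = 0.178). The peptide control animals lay between 10.82 and 11.01. HSPBAP1, a heat shock protein partner, read 5.96, 5.42, 4.93 and 5.9 against 3.08, 3.39, 3.34 and 3.93 (-2.12 ± 0.58, adjusted p = 0.152), without a difference of that size at 0 h (0.15). RNF20, a ubiquitin ligase for histone H2B, differed by -1.07 ± 0.30 (adjusted p = 0.176) and PTGES3, the HSP90 co-chaperone p23, by -0.57 ± 0.18 (adjusted p = 0.225). PCDH9, a protocadherin, read 3.84, 3.34, 4.14 and 3.45 against 2.97, 0.61, 0.88 and 0.44, so that 3 of the peptide control values lay below the 20th percentile and the fitted difference of -2.47 has no defined size. The others were ABHD3 (-0.87), SLC35G1 (-1.23), the mitochondrial myosin MYO19 (-1.02), ZNF322 (-0.94), STARD3NL (-0.91), FARP1 (-0.89) and TMEM200B (-0.97), and adjusted p values of the 12 ran from 0.109 to 0.236.

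**Figure D5:**
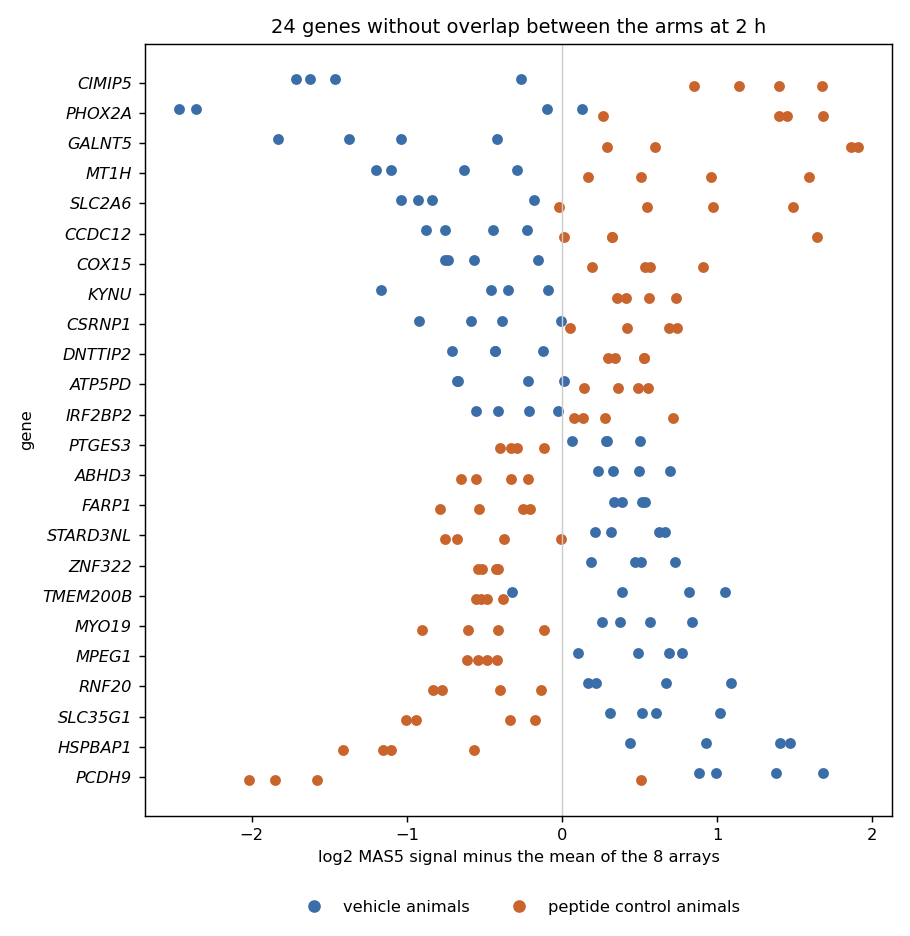
Log2 MAS5 signal minus the mean of the 8 arrays (horizontal axis) for the 24 named genes whose arms did not overlap at 2 h (rows, ordered by their difference); 1 point per animal, blue for vehicle and orange for peptide control. The genes were chosen for this separation, and adjusted p values ran from 0.0876 to 0.236.

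The gene with the smallest p of all, chosen here after its values were seen, was RNF24, a membrane-bound RING finger protein. It read 11.75, 11.25, 10.3 and 10.98 with vehicle and 10.82, 9.49, 8.13 and 8.54 with peptide control (-1.82 ± 0.36, SE, adjusted p = 0.0706). SLC43A3, a purine base transporter also chosen after its values were seen, read 7.54, 6.91, 9.26 and 7.23 against 7.73, 10.33, 10.37 and 9.72 (1.80 ± 0.38, adjusted p = 0.0706). In both, Y31303 and Y31305 lay between the 3 upper and 3 lower animals.

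At 0 h the same 8 animals gave no call either. Limma called 0 genes (0%), and at an unadjusted p under 0.05 there were 278 genes higher (1.74%) and 155 lower (0.968%) in the peptide control arm. The NF-kB list had a median difference of 0.08 at 0 h. For the change from 0 h to 2 h, peptide control against vehicle, limma called 0 genes (0%), with 237 genes higher (1.48%) and 318 lower (1.99%) at an unadjusted p under 0.05. In that comparison, which uses the same 2 h arrays, the NF-kB list had a median of 1.35, ICAM1 a difference of 2.87 ± 0.98 (SE, adjusted p = 1), IL18 3.69 ± 0.99 (adjusted p = 0.835) and NR4A3 3.76 ± 0.93 (adjusted p = 0.672). Without Y31303, 58 genes were called for the change and 2 at 0 h, and without Y31305 there were 12 for the change. These fits and their SEs did not pair the arrays of an animal. With the animal as a block, limma called 0 genes for the change (smallest adjusted p 0.206). At an unadjusted p under 0.05, 426 were then higher and 524 lower. With 8 within-animal differences, added after seeing the data, limma called 0 as well, with 245 higher and 404 lower (smallest adjusted p 0.691).

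The signal of the array control probe sets differed between the 2 h arrays as well. The spiked poly-A controls averaged log2 7.4, 6.97, 8.35 and 7.1 in the vehicle arrays and 6.63, 9.0, 8.27 and 7.56 in the peptide control arrays. The hybridisation controls averaged 11.93, 11.98, 12.31 and 11.86 against 11.94, 12.3, 12.21 and 12.28. Both were higher in Y31303 and the last 3 peptide control animals than in the other 4. At 0 h, 5 of the 8 arrays had a poly-A control signal above log2 8.67. They read ICAM1 between 5.47 and 7.47, against 5.82 to 6.84 in the 3 others. At 2 h ICAM1 read 10.47 to 11.83 in Y31303, Y31306, Y31307 and Y31308, of which only Y31306 lay above 8.67. The 0 h and 2 h arrays thus differ in control signal, and its part in the ICAM1 level was not tested. IL1B at 0 h read 8.73 to 9.57 on the high-control arrays and 7.85 to 8.56 on the others. With the control signal as a covariate, an alternative added after seeing the data, limma called 8 genes at 2 h, among them NFKBIA (1.39, adjusted p = 0.0483), IL18 (3.16, adjusted p = 0.0485) and RELB (2.57, adjusted p = 0.0489).

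At the later hours Y31303 and Y31305 kept their places in PI3, MARCO, LTF, CSF1R and IL1B. At 8 h the margins were narrow in CSF1R and IL1B. In ICAM1 Y31303 kept its place at 4 h but not at 8 h, and Y31305 at neither. Y31303 read PI3 at 13.84 at 4 h and 13.72 at 8 h, and Y31305 at 7.45 and 7.36, beside 12.41 to 13.78 and 11.43 to 13.78 in the LR12 animals. MARCO, a scavenger receptor of phagocytes, read 8.33 and 10.21 in Y31303 and 1.23 and 2.26 in Y31305, beside 7.56 to 9.97 and 9.68 to 11.67 with LR12. LTF read 13.4 and 13.01 in Y31303 and 8.31 and 8.32 in Y31305, beside 12.58 to 13.45 and 11.09 to 12.19 with LR12. CSF1R read 6.93 and 9.52 in Y31303 and 10.32 and 10.99 in Y31305, beside 7.56 to 8.51 and 9.51 to 10.47 with LR12. At 8 h CSF1R read 10 to 10.4 in Y31306, Y31307 and Y31308 and 10.47 to 10.87 in Y31301, Y31302 and Y31304. IL1B read 11.03 and 10.16 in Y31303 and 8.99 and 9.02 in Y31305. In Y31306, Y31307 and Y31308 IL1B read 10.79 to 11.09 at 4 h and 9.41 to 10.09 at 8 h. In Y31301, Y31302 and Y31304 it read 8.62 to 9.23 and 8.19 to 8.89. ICAM1 read 7.89 in Y31303 and 7.65 in Y31305 at 4 h, beside 6.87 to 9.71 in Y31306, Y31307 and Y31308 and 5.03 to 6.41 in Y31301, Y31302 and Y31304. At 8 h ICAM1 read 6.26 in Y31303, below all 4 peptide control animals (6.65 to 7.35), of which Y31305 was the highest. Y31305 had read ICAM1 at 7.47 already at 0 h, so its later level was close to its start.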

How the data were processed

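The deposited file holds intensities on a linear scale. The submitters' processing notes name MAS5 without its version. The mean after trimming 2% at each end was 150.03 or 150.04 on every array. Per the labels, blood was collected in PAXgene tubes and biotinylated cDNA was hybridised. Values were put on the log2 scale with no further normalization. A probe set was kept if above its array's median on at least 4 of 56 arrays, and a gene was read by its kept probe set with the highest mean among those with 1 symbol, which left 16020 genes, 13561 with a symbol in the macaque gene table. The array's probe table named 41097 of 54675 probe sets with exactly 1 symbol, 1801 with several and 11777 with none. CCL3 and CD3E were not tested, since no kept probe set names either alone.

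The test was limma's (version 3.58.1, R 4.3.3), with a means model over the 12 groups of arm and hour on all 56 arrays, with trend and robust moderation, two-sided, Benjamini-Hochberg over all genes, called at an adjusted p below 0.05. The procedure was tested on simulated data. Named genes were the 12 on each side with the largest called differences, or failing calls the smallest p, among genes whose arms did not overlap and whose higher arm was above the 20th percentile; a fixed core of genes; and, from each of 31 lists, its called members or the 2 with the smallest p. Members and lists were chosen with earlier results of these data known. Lists are described by counts and medians, with no set test. Alternatives were other scalings, filters and offsets, the 8 arrays alone, the animal as a block, array controls as covariates, and each animal left out. The animal pairs the 4 arrays of 1 animal (consensus correlation 0.221 with statmod 1.5.0), not animals of different arms. Of the animals' 4 arrays, those at 4 and 8 h entered the shared estimate of the spread.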

Additional observations from a re-analysis of the deposited data

Results flagged for a closer look

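In each arm of 4 animals, a value was singled out where its gap to the nearest other value exceeded Dixon's critical share of the arm's range. Of 268 sets of 4 values examined, 42 were singled out; chance gives about 1 in 20, and the values share animals and genes. They nearly all belonged to vehicle Y31303 or peptide control Y31305.

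On the first principal component Y31303 lay at 56.4 (other vehicle animals -57.8 to -47.8) and Y31305 at -45.8 (other peptide control animals 45.3 to 53.3).

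Y31303 was high for its arm in IL1B (12.19, others 8.63 to 8.83), TNFAIP3 (12.33), PI3 (13.91), IL18 (8.87), CCL20 (6.0), ACOD1 (9.54), PTGER2 (8.45), a prostaglandin E2 receptor, RFX5 (12.64), NKG7 (10.78), TFRC (9.15), SLC2A1 (8.68) and ADM (10.04). It was low in CSF1R (5.48, others 9.93 to 10.37), TSC22D3 (11.73), SELPLG (7.94), PDK4 (6.91) and CEBPA (7.65). Its list medians stood out for NF-kB feedback (0.88), anti-inflammatory mediators (0.33) and MHC class II presentation (-0.56).

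Y31305 was low for its arm in IL1B (8.82, others 11.83 to 12.37), NFKBIA (11.72), IL1RN (10.78), LTF (8.36), PI3 (7.2), IL18 (5.26), VAV1 (10.33), ACOD1 (5.24), LTA4H (11.46), the enzyme that makes leukotriene B4, and RFX5 (12.16). It was high in CSF1R (9.94), TSC22D3 (13.41), SELPLG (9.87) and PDK4 (8.68). Its list medians stood out for endotoxin recognition (-0.31), prostaglandin, leukotriene and oxidase genes (-0.56), glucocorticoid-induced genes (0.37) and glycolysis and hypoxia (-0.19).

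Other animals were singled out in 2 sets: IFIH1, a sensor of viral RNA, in Y31306 (12.62, others 11.64 to 11.8), and B cell markers in Y31308 (-0.5).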

How the results depend on the processing

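At 2 h the count of called genes was 0 with arrays centred on their median, with the 8 arrays alone, without trend and robust moderation, with the mean of all probe sets of a gene, and with the animal as a replicate block (0 genes, smallest adjusted p 0.0719). It was 2 with quantile normalization, 5 with an offset before the log, 2 without a filter, 6 with a stricter filter, 30 with arrays split in the model at a poly-A control signal of log2 8.67 and 8 with that signal itself in it, which was chosen after seeing the data; the cause was not tested. The split is taken from the control probe sets, since the labels name no batch; at 2 h it sets Y31306 alone apart among the 8 arrays. Leaving out 1 animal gave 0 to 638 genes at 2 h (638 without Y31303, 383 without Y31305), 0 to 2 at 0 h and 0 to 58 for the change from 0 h, which was 0 under every other alternative, 8 within-animal differences (added after seeing the data) included. Arms hold different animals, so no pairing between them exists, and the replicate block changed no call. Of 1892 values of the 100 named genes under the alternatives, 1883 kept their sign. CXCL8 turned to -0.06 with the control split. SOD2 turned to -0.02 with quantile normalization and, leaving out single animals, ranged from -0.07 (without Y31302) to 0.21 (without Y31303). TREM1 turned to 0.28 with that split and 0.12 with the control signal, and, leaving out single animals, ranged from -1.16 (without Y31303) to 0.88 (without Y31306); it was 0.35, 0.03 and 0.27 without Y31301, Y31302 and Y31304. Of 589 list medians, 587 moved by less than the spread between animals, taken as the larger SD of the 2 arms. Where Y31303 or Y31305 stood apart they widened that spread, so it is a lenient limit. Values near the 20th percentile limit the size of low differences.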

Other observations

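Interferon response genes varied between animals in another order than the NF-kB genes. The median of 26 such genes at 2 h, relative to all genes and the mean of the 8 arrays, was 0.33, -0.82, 0.67 and 0.12 in the vehicle animals and 0.9, 0.94, -1.31 and -0.71 in the peptide control animals. Their median within-animal changes from 0 h were smaller, from -0.12 to 0.49. Y31305 and Y31306 thus stood together at the top of the peptide control arm here, while they lay at opposite ends of it for NF-kB genes.

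In some genes Y31303 did not stand fully with the last 3 peptide control animals. PRG2, the major basic protein of eosinophil granules, read 1.0, 3.91, 4.05 and 2.84 with vehicle and 2.21, 7.24, 10.84 and 9.05 with peptide control (4.39 ± 1.10, SE, limma adjusted p = 0.109), and the LR12 animals ran from 2.03 to 7.55. SLC2A1, the glucose transporter GLUT1, read 6.82, 7.11, 8.68 and 6.9 against 6.55, 5.6, 5.45 and 6.84 (-1.27 ± 0.33, adjusted p = 0.124), so that Y31303 lay farthest from the peptide control arm. THBD, thrombomodulin, read 12.64, 12.65, 12.19 and 12.4 against 12.14, 11.86, 10.99 and 12.15, and these arms did not overlap (-0.68 ± 0.23, adjusted p = 0.254). MT2A, a metallothionein singled out after its values were seen, read 9.88, 9.7, 11.18 and 9.72 against 11.02, 12.36, 11.59 and 12.32 (1.71 ± 0.43, adjusted p = 0.115). There Y31303 and Y31305 lay side by side, between the other vehicle animals and the last 3 peptide control animals.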
